A study of Drosophila melanogaster with 6 samples.

Results

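The genes described here are 43 *Drosophila melanogaster* genes that the deposited table names only by a CG number and whose transcripts were far more abundant in *ft* mutant embryos than in controls. They were chosen from these same measurements. Of 17208 genes in the table, 6710 carried a CG number as their symbol and 4196 of these averaged at least 1 CPM in the mutants, where CPM is the estimated count divided by the library total and multiplied by 1000000. A gene was kept if the mutant mean plus 0.1 CPM was at least 4 times the control mean plus 0.1 CPM and if the lowest mutant library lay above the highest control library. One gene that the rule leaves out by name is not analysed here. Among the 4196 genes, 1.05% reached the ratio of 4 and 13.6% had mutant libraries lying wholly above the controls, and 43 met both conditions. The difference between genotypes is therefore how the genes were picked and is given below as a description, without a test.

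RNA-seq was done on whole embryos aged to 16-20 h at 25 °C, with 4 libraries of genotype ftfd5-5/ftX13, called null for *ft* in the series text (*ft* null below), and 2 libraries of w1118, used as the wild type. The w1118 strain carries a lesion in the eye colour gene *w*. Both mutant alleles sit on chromosome 2, in trans to each other, and nothing in the labels says that the backgrounds of mutant and control were matched, so an effect of the *ft* alleles and a difference between strains cannot be told apart anywhere in these data. Nothing in the labels ties the libraries to distinct embryo collections, and p-values below therefore measure the spread between these libraries, which may be technical. In bulk RNA from whole embryos, fewer cells that transcribe a gene and less RNA per cell cannot be told apart.

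CG numbers were given to predicted genes when the fly genome was annotated, and a gene keeps its number as a symbol until it is named for a phenotype, a biochemical activity or a relative in another species. Many such genes belong to families of enzymes, peptidases and secreted proteins that lie in tandem arrays, where neighbouring copies resemble each other. *ft* encodes Fat, a very large cadherin needed for the orientation of cells within an epithelium and for restraint of growth through the Hippo pathway. The series title concerns a fragment of Fat that is released by cleavage and acts in the nucleus, and the comparison asks which transcripts differ when Fat is missing.

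Library totals ran from 21261928 to 29151981 estimated counts, so that 3 counts correspond to 0.103 to 0.141 CPM. *ft* (FBgn0001075, 2L from 4198404 to 4221796) was at 28.4, 28.1, 32.8 and 29.98 CPM in *ft* null replicates 1 to 4 and at 45.7 and 45.5 CPM in w1118 replicates 1 and 2, lower in all 4 mutants (log2 fold change -0.57, SE 0.106, edgeR adjusted p = 0.0249). That call was lost without any single library other than *ft* null replicate 1 (log2 fold change -0.62 to -0.52 over all single removals, highest adjusted p of edgeR 0.127). The transcript was still detected in every mutant library, which does not bear on the protein. *w* was at 1.13, 1.11, 0.470 and 0.377 CPM in *ft* null, against 0.103 and 0 CPM in w1118. Of 54 marker genes in 12 lists, 50 were found and 36 of them averaged at least 1 CPM in *ft* null. The summed level of 4 midgut markers ran from 7.71 to 35.6 CPM in *ft* null and from 48.2 to 68.3 CPM in w1118, that of 5 hemocyte markers from 222 to 268 and from 283 to 316 CPM, that of 3 yolk markers from 0.709 to 1.62 and from 1.8 to 1.85 CPM, and that of 6 testis markers from 0.854 to 1.42 and from 1.62 to 2.85 CPM, with *Mst84Da* at 0 in every library. In the other direction, 2 trachea markers summed to 54.8 to 61.4 CPM in *ft* null, above the 50.8 to 52.2 CPM in w1118. The ranges of the other 7 lists overlapped between genotypes. Of single CG-numbered genes at 1 CPM or more, 13.6% lay wholly higher in *ft* null and 17.8% wholly lower. No testis or yolk marker averaged 1 CPM in *ft* null, and only 2 midgut markers did. The part of these marker differences in the values below was not tested.

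All 43 genes are annotated as protein coding, and 9 of them have since received a name in the Ensembl annotation. Their coding sequences are of modest length, with a median of 344 residues (79 to 1292) against 396 over the CG-numbered genes at 1 CPM or more. The genes stood at a median of 6.02 CPM in *ft* null and 0.454 CPM in w1118, where the CG-numbered genes as a whole had medians of 19.5 and 20.0 CPM. They were thus rather weakly transcribed even in the mutants: 14 averaged 10 CPM or more, and 16 less than 3 CPM. In w1118, 27 lay below 1 CPM, 5 had no read in either library and 3 had 1 to 3 reads. The ratio of the rule was under 5 for 17 genes, between 5 and 10 for 12 and at least 10 for 14. All 43 passed the filter on low counts, which they could do through the mutant libraries alone, and edgeR called 41 of them higher (adjusted p under 0.05), beside 2.15% of the 11542 genes tested (4.3% in either direction). Among the tested genes other than these 43, 1.8% were called higher and 2.16% lower. Because the rule used this contrast, nothing is read from that count. The other 2, CG7069 and CG10814, varied most among the mutants.

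**Figure D1:**
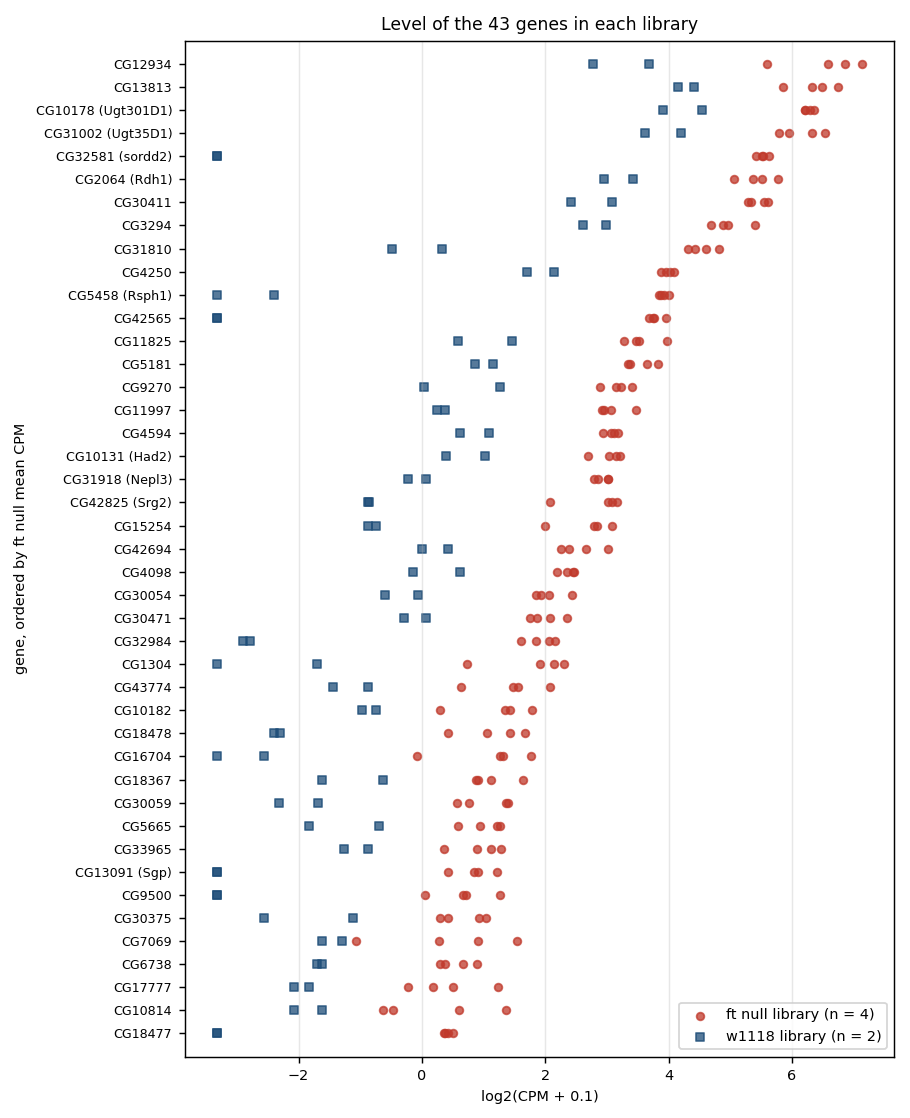
Level of each of the 43 genes in every library, as log2(CPM + 0.1) on the horizontal axis, with circles for the 4 *ft* null libraries and squares for the 2 w1118 libraries, and newer names in brackets. Mutant circles lie to the right of the control squares in every row because the rule requires it, and the gap is narrowest for CG7069 and widest for CG32581.

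Per kilobase of exon, the highest mutant level belonged to CG12934 (2R from 10648888 to 10649830), a gene of 237 residues with no role given here, at 106 CPM per kb in *ft* null and 10.3 in w1118. In CPM it stood at 48.5, 95.6, 116 and 141 in *ft* null replicates 1 to 4 and at 6.73 and 12.7 in w1118 replicates 1 and 2. *ft* null replicate 1 was the lowest of the mutants, and even so lay well above the higher control. The mutant mean was 100.3 ± 39.2 CPM (SD, n = 4), the control mean 9.71 ± 4.22 CPM (SD, n = 2), for a fitted log2 fold change of 3.40 (SE 0.492). CG13813 (3L from 20231669 to 20233255), was next in order per kilobase. It was at 107, 80.0, 89.7 and 57.6 CPM in *ft* null, against 21.3 and 17.6 CPM in w1118, so that *ft* null replicate 1, the lowest mutant library for CG12934, was here the highest and replicate 4 the lowest of the mutants.

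Enzymes of redox chemistry and conjugation made up 5 of the 43 genes, with a summed level of 199 to 238 CPM in *ft* null and 36.6 to 55.3 CPM in w1118. Among them are a pair of UDP-glycosyltransferases, a family that attaches sugars to small lipophilic molecules and so makes them easier to excrete. CG10178, now *Ugt301D1* (2L from 18509560 to 18513512), was at 78.5, 82.3, 74.4 and 73.7 CPM in *ft* null, against 23.2 and 15.0 CPM in w1118. Its mutant libraries were nearly level, with a coefficient of variation of 5.17%, and its ratio of 4.04 is the second lowest that still met the rule. CG31002, now *Ugt35D1* (3R from 31393582 to 31395304), was at 93.2, 61.9, 79.8 and 55.4 CPM in *ft* null, against 18.4 and 12.2 CPM in w1118. Both genes thus stood about as high as each other in every group, at 38.9 and 43.6 CPM per kb in *ft* null, although they lie on different chromosomes.

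The other members of this group are dehydrogenases. CG2064, now *Rdh1* and named for retinol dehydrogenases (2R from 7665828 to 7667343), was at 33.3, 54.8, 45.7 and 41.1 CPM in *ft* null, against 10.6 and 7.65 CPM in w1118. Its neighbour CG2065, 0.558 kb away, averaged 34.5 CPM in *ft* null and 32.1 CPM in w1118, without a difference that passed (log2 fold change 0.15, SE 0.15, edgeR adjusted p = 0.631). CG10131, now *Had2* after hydroxyacid dehydrogenases, was at 8.09, 6.38, 9.18 and 8.75 CPM in *ft* null, clear of the 1.92 and 1.22 CPM in w1118.

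CG31810 (2L from 16849018 to 16852368), a gene of the short-chain dehydrogenase family, was at 24.3, 21.6, 28.1 and 19.7 CPM in *ft* null, against 1.16 and 0.613 CPM in w1118, a mean 26.5-fold higher. The gene beside it on the same strand, CG31809, was the mirror image. It had 46, 23, 78 and 39 reads in *ft* null and 718 and 339 reads in w1118 (log2 fold change -3.31, SE 0.382, edgeR adjusted p = 0.0031). The call held in all 11 alternative fits (highest adjusted p 0.0475). Added together, the 2 genes gave 26.5, 22.6, 31.4 and 21.1 CPM in *ft* null and 25.8 and 15.9 CPM in w1118, ranges that overlap, with a ratio of 1.22. CG31810 therefore meets the rule as a gene of its own and not as part of this sum. All 6 of its counts were fractional, which arises when reads are shared among transcripts by a model.

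Peptidases, their inactive relatives and a peptidase inhibitor gave 8 genes, 7 of them on chromosome 2. Summed, they reached 26.6 to 34.7 CPM in *ft* null and 2.79 to 2.88 CPM in w1118. CG18477 and CG18478, both carrying serine protease homolog numbers among their RefSeq synonyms, lie 7.42 kb apart on 2L with no gene between them other than *stol*, which spans both on the opposite strand. CG18477 (2L from 15661041 to 15662753) had 25, 27, 31 and 36 reads in *ft* null and none in w1118, at least 21.1-fold higher against 3 counts over the controls. The mutant libraries were close to each other once scaled, at 1.18 to 1.32 CPM. CG18478 (2L from 15670174 to 15671223) had 42, 70, 61 and 36 reads in *ft* null and 3 and 2 reads in w1118. *stol* (CG4587), the overlapping gene, averaged 41.3 CPM in the mutants against 38.7 CPM, which did not pass (log2 fold change 0.13, SE 0.121, edgeR adjusted p = 0.583).

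CG15254, an astacin-type metallopeptidase gene, lies 46.2 kb from CG18477 and was at 3.90, 7.09, 8.41 and 6.83 CPM in *ft* null, against 0.446 and 0.495 CPM in w1118. Its neighbour CG15253, of the same family, rose too by the main test (31, 41, 61 and 66 reads in *ft* null against 25 and 11 in w1118, log2 fold change 1.61, SE 0.354, edgeR adjusted p = 0.0456), but lost its call in limma voom and without any single library other than *ft* null replicate 1 (highest adjusted p of these 0.212). *Semp1*, the astacin gene on its other side, had no reads in any library. CG1304 (X from 20964527 to 20965419), a trypsin-like serine protease gene, had 33, 82, 114 and 126 reads in *ft* null and 6 and 0 in w1118. Its ratio of 18.2 moved to 37.0 without w1118 replicate 1, which held all the control reads, and to 12.1 without w1118 replicate 2. The adjacent protease gene *Ser6* had 166, 467, 446 and 777 reads in *ft* null and 556 and 419 in w1118, overlapping ranges (edgeR adjusted p = 0.991).

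CG16704 (2L from 3692123 to 3692587), which encodes a Kunitz-type inhibitor of serine proteases, is the shortest of the 43, with 79 residues. It had 18, 54, 54 and 96 reads in *ft* null and 2 and 0 in w1118. Its ratio by the rule was 17.2, and its pooled reads, scaled by library totals without a pseudocount, were 59.1-fold higher (95% exact interval of counting error 16.2 to 491). The interval leaves out the spread between libraries and the choice of the gene on these same counts. The fitted log2 fold change of 5.72 became 8.72 without w1118 replicate 1, which held both control reads, and 5.02 without w1118 replicate 2. CG31918, now *Nepl3* and named as a neprilysin-like metallopeptidase, had 170, 181, 167 and 198 reads in *ft* null and only 22 and 21 in w1118. The serine protease relatives CG42694 and CG30375 averaged 6.02 and 1.53 CPM in *ft* null and 1.07 and 0.214 CPM in w1118. The ratio of CG30375 rested on few control reads, 2 and 8, and moved from 5.18 to 9.66 without w1118 replicate 2.

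Genes of fatty acid, energy and amino acid metabolism numbered 6, with ratios between 4.25 and 5.65. CG4594, in an array of enoyl-CoA isomerase genes that serve the breakdown of unsaturated fatty acids, was at 8.94, 8.28, 8.58 and 7.55 CPM in *ft* null, against 2.03 and 1.44 CPM in w1118. The flanking genes of the array did not pass the test. CG4598 averaged 66.7 CPM in the mutants and 50.3 in the controls (log2 fold change 0.45, SE 0.133, edgeR adjusted p = 0.108). CG4592 averaged 8.33 and 7.71 CPM (0.16, SE 0.194, edgeR adjusted p = 0.699). CG7069 encodes a relative of pyruvate kinase and lies 0.088 kb from *PyK*, the main pyruvate kinase gene. It had 8, 25, 66 and 52 reads in *ft* null and 9 and 5 in w1118, so that *ft* null replicate 1, at 0.376 CPM, barely exceeded w1118 replicate 1, at 0.309 CPM. *PyK* itself averaged 271 CPM in the mutants and 290 in the controls (log2 fold change -0.06, SE 0.14, edgeR adjusted p = 0.854).

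CG10814, which RefSeq synonyms give as a gamma-butyrobetaine hydroxylase gene, an enzyme of the last step of carnitine synthesis, had 30, 14, 58 and 16 reads in *ft* null and 4 and 5 in w1118. Its coefficient of variation among the mutants, 71.0%, was the highest of the 43. CG6738, an aminoacylase relative, was at 1.39 and 0.216 CPM, and CG4098, of the ADP-ribose pyrophosphatase family, at 5.08 and 1.12 CPM.

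CG11825 (2R from 10420414 to 10423650), whose product belongs to the HIG1 family of mitochondrial inner membrane proteins, was at 9.55, 11.4, 15.5 and 11.01 CPM in *ft* null, against 2.64 and 1.40 CPM in w1118. It lies between 2 peroxiredoxin genes, which encode peroxide-reducing enzymes, and both of these rose. *Prx2540-2* had 815, 1454, 1826 and 1936 reads in *ft* null and 311 and 203 in w1118 (log2 fold change 2.68, SE 0.282, edgeR adjusted p = 0.00214). *Prx2540-1* had 478, 827, 964 and 1189 reads in *ft* null and 168 and 84 in w1118 (log2 fold change 2.92, SE 0.301, edgeR adjusted p = 0.00204). Both kept their call in all 11 alternative fits (highest adjusted p 0.0484). The pair are close copies, which leaves their separate values uncertain. CG33474, which overlaps CG11825 on the opposite strand, had 23, 74, 103 and 89 reads in *ft* null and 106 and 71 in w1118 and did not pass (edgeR adjusted p = 0.874).

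The largest ratio of the 43 was that of CG32581, now *sordd2* (X from 15796908 to 15799162). CG32581 is grouped here with genes of a named role, but its function is not described. It was at 42.6, 45.8, 46.4 and 49.4 CPM in *ft* null, while neither w1118 library was assigned a read. Against 3 counts over the controls it was at least 793-fold higher, a bound that covers counting error only. The mutant libraries were close together, and the estimated counts of both controls were 0. All 4 mutant counts were fractional, so some of these reads were divided between transcripts by a model. The control values come from the same model, and whether it gave control reads of CG32581 to another gene was not tested. *sordd1* (CG8974, X from 15793721 to 15796028), which shares its name, is not one of the 43 and was looked up after the values were seen. It lies on the same strand and was at 146, 150, 167 and 155 CPM in *ft* null, against 175 and 152 CPM in w1118, overlapping ranges (log2 fold change -0.04, SE 0.104, edgeR adjusted p = 0.859). Added together, CG32581 and CG8974 gave 188, 196, 213 and 205 CPM in *ft* null, against 175 and 152 CPM in w1118, a ratio of 1.22, so that CG32581 meets the rule as a gene of its own and not as part of this sum. CR44383, annotated as a pseudogene between them, had 19, 18, 27 and 27 reads in *ft* null and 3 and 0 in w1118 (log2 fold change 3.97, SE 0.628, edgeR adjusted p = 0.0132). That call was lost without w1118 replicate 2 (3.23, edgeR adjusted p = 0.0616), and the fitted value was 7.49 without w1118 replicate 1, which held all its control reads.

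CG5458, now *Rsph1* (2L from 13183450 to 13184875), is named for a component of the radial spokes that regulate bending in motile cilia and flagella. It was at 14.3, 15.0, 15.9 and 14.6 CPM in *ft* null, against 0 and 0.0900 CPM in w1118, with 1440 pooled reads against 2. Scaled by the pooled library totals without a pseudocount, these reads were 383-fold higher (95% exact interval of counting error 106 to 3170), and the ratio of the rule was 104. Both control reads were in w1118 replicate 2. The fitted log2 fold change of 8.44 became 7.28 without w1118 replicate 1 and 11.58 without w1118 replicate 2, when no control read remained and the value is no bound. This was the most even of the 43 genes among the mutants, with a coefficient of variation of 4.74%. All 4 mutant counts of CG5458 were fractional. CG5287, now *Alg7*, and CG16974 both overlap it and averaged 43 and 322 CPM in the mutants against 47.6 and 364 CPM in the controls, without passing the test (edgeR adjusted p = 0.753 and 0.577). The remaining genes with a role given here were lower. CG9270, an ABC transporter gene and the longest of the set with 1292 residues, had 155, 198, 217 and 306 reads in *ft* null and 27 and 51 in w1118. Its ratio of 5.29 became 8.82 without w1118 replicate 2.

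CG30054 encodes a G protein alpha subunit of the Gq type and adjoins *Galphaq*, the principal gene of that type. It averaged 4.14 and 0.709 CPM, whereas *Galphaq*, averaging 76.2 CPM in the mutants and 69.0 in the controls, did not pass (log2 fold change 0.18, SE 0.112, edgeR adjusted p = 0.404). CG9500, a fibrinogen-related gene, had 20, 35, 35 and 67 reads in *ft* null and none in w1118, at least 27.9-fold higher.

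For 19 of the 43 genes no role is given here. CG42565 (2R from 22657901 to 22661389) was at 13.5, 15.4, 13.4 and 12.8 CPM in *ft* null with no read in w1118, at least 235-fold higher, and lies in the same stretch of 2R as CG4250. CG4250 (2R from 22663692 to 22664474) was at 15.5, 14.6, 16.1 and 16.9 CPM in *ft* null, against 4.33 and 3.15 CPM in w1118. Both were nearly level among the mutants. The gene between them, CG42566, rose too (20.2, 19.2, 20.7 and 18.3 CPM against 13.5 and 9.00 CPM, by 0.85 ± 0.163 SE on the log2 scale, edgeR adjusted p = 0.0287). It lost its call without *ft* null replicate 2 or 3 or w1118 replicate 2 (highest adjusted p of edgeR 0.108). CG13510 and CG13511 are annotated over exactly the same span and strand as CG42565, so the division of reads among the 3 genes is uncertain, and all 4 mutant counts of CG42565 were fractional. They averaged 93.4 and 1.55 CPM in the mutants against 109 and 1.96 CPM in the controls and did not pass (edgeR adjusted p = 0.597 and 0.629).

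CG32984 (2L from 8964957 to 8967035) had 93, 92, 82 and 86 reads in *ft* null and 1 in each w1118 library. Its ratio by the rule was 27.4, and its pooled reads were 94.0-fold higher without a pseudocount (95% exact interval of counting error 25.8 to 779). Its neighbour CG18088 also rose, with 30, 39, 36 and 60 reads in *ft* null and 10 and 12 in w1118 (log2 fold change 1.99, SE 0.356, edgeR adjusted p = 0.0224), a call lost without either control or without *ft* null replicate 2 or 3 (highest adjusted p 0.115). CG32985 on the other side had 14, 12, 4 and 4 reads in *ft* null and 2 and 0 in w1118 and did not pass (edgeR adjusted p = 0.166). CG13091, now *Sgp*, had 36, 40, 29 and 65 reads in *ft* null and none in w1118, at least 30.2-fold higher.

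CG30411 (2R from 23415939 to 23417238) was at 40.3, 48.7, 38.8 and 46.8 CPM in *ft* null, against 8.38 and 5.22 CPM in w1118, and CG9812, which overlaps it on the opposite strand, averaged 38.4 CPM in the mutants and 33.0 in the controls, which did not pass (log2 fold change 0.26, SE 0.145, edgeR adjusted p = 0.353). CG3294 (2L from 4794549 to 4796581) was at 25.7, 31.3, 42.1 and 29.4 CPM in *ft* null, against 7.79 and 5.99 CPM in w1118. It is 1 of 4 members within 2 Mb of *ft*, with CG16704, CG43774 and CG31918. CG5181 (2L from 7408533 to 7409809) was at 14.1, 12.4, 10.1 and 10.2 CPM in *ft* null, against 2.13 and 1.71 CPM in w1118. CG5177, which overlaps it on the opposite strand, averaged 823 CPM in the mutants and 776 in the controls and did not pass (edgeR adjusted p = 0.580). CG15818, 1.10 kb from CG5181 on the opposite strand, fell, a call that held in all 11 alternative fits. It had 86, 91, 74 and 79 reads in *ft* null against 490 and 316 in w1118 (log2 fold change -2.11, SE 0.201, edgeR adjusted p = 0.00148). Added together, CG5181 and CG15818 averaged 15.2 CPM in *ft* null and 17.4 CPM in w1118, with overlapping ranges and a ratio of 0.871. CG5181 too therefore meets the rule as a gene of its own and not as part of this sum.

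CG30059 was at 2.52, 2.47, 1.39 and 1.59 CPM in *ft* null, against 0.211 and 0.0999 CPM in w1118. It overlaps CG33470 on the opposite strand. CG33470, now *BaraA1*, encodes the precursor of immune-induced peptides and fell by 2.98 on the log2 scale, with 156, 408, 207 and 305 reads in *ft* null and 2809 and 1900 in w1118 (SE 0.31, edgeR adjusted p = 0.00211, highest 0.0345 over 11 alternative fits). All 6 counts of CG30059 were fractional. Added together, CG30059 and CG33470 averaged 13.2 CPM in *ft* null and 91.1 CPM in w1118, a ratio of 0.145. On 2R, CG30059 starts at 13412769 and CG33470 ends at 13413085, so the genes share only part of their spans. Because the library kit does not mark strand, reads from the shared stretch cannot be assigned to a strand. In the same way CG11997 lies inside *pum* on the opposite strand. It had 233, 168, 193 and 224 reads in *ft* null and 35 and 24 in w1118, while *pum* averaged 145 CPM in the mutants and 166 in the controls and did not pass (edgeR adjusted p = 0.408). CG42825, now *Srg2*, which overlaps *dpr6*, was at 4.14, 8.42, 8.03 and 8.88 CPM in *ft* null, against 0.446 and 0.450 CPM in w1118.

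The other 7 genes without a role were low, between 1.34 CPM for CG17777 and 3.98 CPM for CG30471 in *ft* null. CG5665 averaged 1.94 CPM, and its ratio of 4.55 became 7.27 without w1118 replicate 1. CG10182, with 24, 55, 78 and 76 reads in *ft* null and 12 and 11 in w1118, has its lowest mutant library, replicate 1, close to the controls. CG43774 averaged 2.77 CPM and CG18367 2.15 CPM. CG33965, with 25, 47, 41 and 68 reads in *ft* null and 13 and 7 in w1118, has the lowest ratio of the 43, at 4.03.

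**Figure D2:**
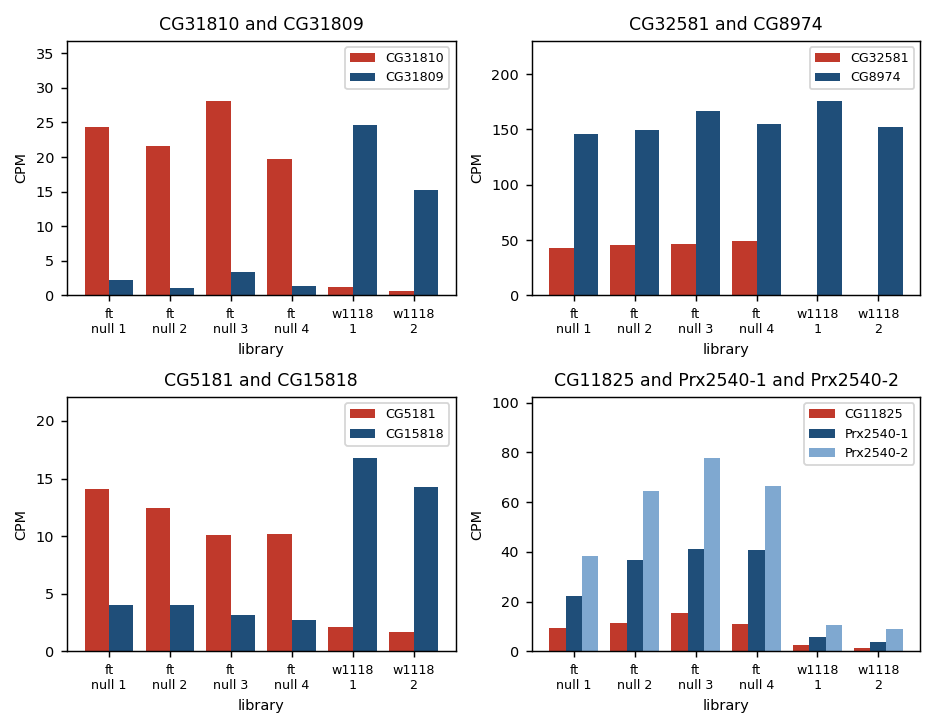
CPM in each library for a member (red) and a gene near it (blue) in 4 places of the genome. CG31809 is high where CG31810 is low, and CG15818 is high where CG5181 is low. CG8974 is similar in all 6 libraries, while CG32581 has no reads assigned to it in w1118. The peroxiredoxin genes on either side of CG11825 are high in the same libraries as it.

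Genes next to the 43, some of which were named above after their values were seen although they were neither called nor overlapping, were not chosen by the rule, and their difference between genotypes was tested. Taking the nearest gene on each side and every overlapping gene, and leaving out members, there were 100 neighbours, of which 76 had enough reads to be tested. Of these 7 rose (9.21%), 3 fell (3.95%) and 66 did not pass, beside 1.8% higher and 2.16% lower among all tested genes other than the 43; whether these shares differ was not tested. The 7 that rose were *Prx2540-1*, *Prx2540-2*, CR44383, CG18088, CG15253, CG42566 and *Elp2*. *Elp2*, a gene of the Elongator complex that lies 0.253 kb from CG12934, had 621, 627, 835 and 968 reads in *ft* null and 511 and 433 in w1118 (log2 fold change 0.80, SE 0.145, edgeR adjusted p = 0.0229), a call that did not survive removal of either control or of mutant replicate 2 or 3 (highest adjusted p of edgeR 0.112). The 3 that fell, CG31809, CG15818 and CG33470, are described above with their members. The count that rose was 3 without *ft* null replicate 2, 3 without *ft* null replicate 3, 4 without w1118 replicate 1 and 2 without w1118 replicate 2. The median log2 fold change was 0.08 over the 76 neighbours and 0.01 over all tested genes. For 33 of the 43 members no neighbour passed in either direction.

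**Figure D3:**
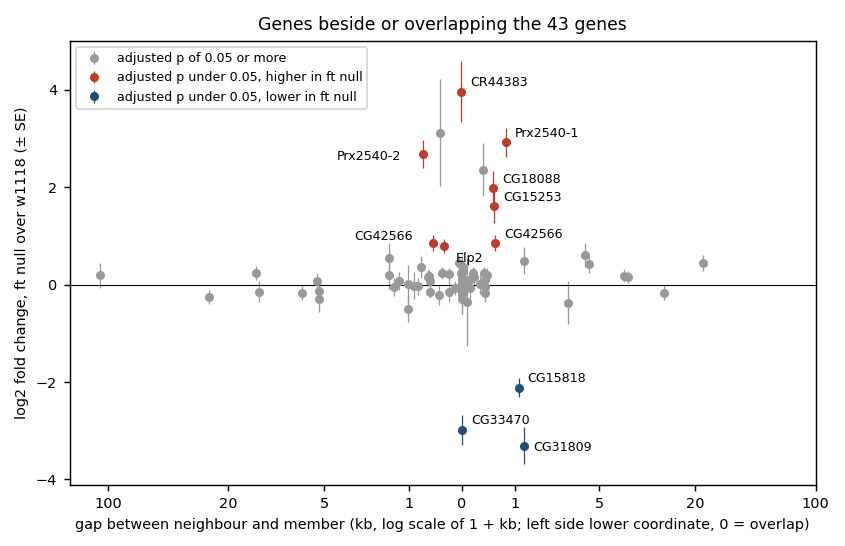
Log2 fold change (*ft* null over w1118, error bars 1 SE) of the 76 tested neighbours against their gap to the member, on a log scale of 1 plus the gap in kb, with the lower-coordinate side on the left. Red points rose and blue points fell at an edgeR adjusted p under 0.05; CG42566 appears on both sides because it lies between members, and most grey points lie near 0.

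Genes that overlap a member deserve a separate count, because reads of overlapping genes can be confused. There were 18 overlaps, 15 of them on opposite strands, involving 16 members and 17 other genes. Of the 16 overlapping genes that were tested, none rose and 1, CG33470, fell in edgeR. Among all tested genes other than members, 1.8% were called higher and 2.16% lower. With shares this low, counts over 16 genes cannot show whether reads were confused, which was not tested. In 15 of the 18 overlaps the other gene stood above 10 CPM in *ft* null.

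The 43 genes were unevenly spread over the genome. Chromosome 2, which carries *ft*, held 30 of them (69.8%), with 16 on 2L and 14 on 2R, whereas 1508 of the 4196 CG-numbered genes at 1 CPM or more (35.9%) lie there. The remaining 13 comprised 5 on 3L, 5 on 3R and 3 on X, and none was on chromosome 4, which has 16 such genes. As a rate, 1.99% of the CG-numbered genes on chromosome 2 met the rule and 0.488% of the 2664 placed on other chromosomes. A further 24 of the 4196 genes had no position and are in neither rate. Among the other genes that edgeR called higher, 89 of 207 (43%) were on chromosome 2, and among those called lower 129 of 248 (52.0%), beside 4336 of 11418 tested genes with a position (38.0%). These shares are descriptions without a test.

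On 2L the members were not gathered around *ft*. Their median distance from it was 5.22 Mb, against 5.55 Mb for the 717 CG-numbered genes on that arm, and 4 of 16 lay within 2 Mb, against 148 of 717. The nearest, CG43774, ended 0.189 Mb from *ft*. Members lay near each other in a pair of places, CG42565 with CG4250, 2.30 kb apart with 1 gene between their ends, and CG18477 with CG18478.

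**Figure D4:**
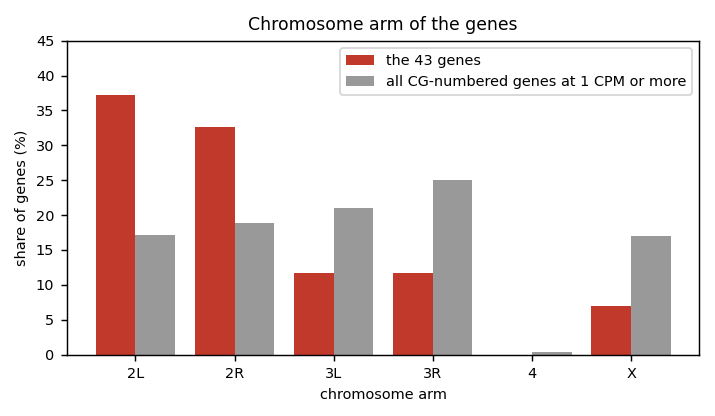
Share of the 43 genes (red) and of all 4196 CG-numbered genes at 1 CPM or more in *ft* null (grey) on each chromosome arm, in percent. The red bars exceed the grey ones on 2L and 2R and fall below them on 3L, 3R and X.

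Among the 4 mutant libraries the 43 genes varied more than CG-numbered genes in general. Their median coefficient of variation was 21.7% against 12.9%, and their levels were also lower, whose part in the spread was not tested. *ft* null replicate 1 was the lowest mutant for 20 of the 43 (46.5%), near its share of 40.8% over all CG-numbered genes at 1 CPM or more, and the highest for 11. CG12934, CG15254, CG42825, CG1304, CG43774, CG10182 and CG16704 are among those with their lowest mutant value there, while CG13813, CG31002 and CG11997 had their highest. The summed level of all 43 genes was 663, 699, 752 and 693 CPM in *ft* null replicates 1 to 4 and 122 and 97.3 CPM in w1118, so that as a total the mutants differed little. Between the controls, replicate 1 was the higher for 25 genes (58.1%) and replicate 2 for 13 (30.2%). Over all CG-numbered genes at 1 CPM or more the shares were 65.9% and 33.9%, a tilt the same way.

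Near the limits of the rule the values ran on without a break. CG33965 and CG10178 were just inside the ratio of 4, and CG10184 (3.93) and CG6300 (3.77) just outside it. CG18477 and CG10814, at 1.23 and 1.26 CPM in *ft* null, were the weakest members, and CG11400 (0.964 CPM) and CG10859 (0.816 CPM) missed the level while meeting the other conditions, as 11 genes did in all. A single gene passed level and ratio without separating the libraries. This was CG33502, with 1032 reads in *ft* null replicate 4 and none in the other 5 libraries. The mirror rule, toward higher levels in w1118, was met by 25 of 4211 CG-numbered genes.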

How the data were processed

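Estimated counts for 6 libraries were deposited by the authors in 1 table with a row per gene. Salmon 1.80, FastQC 0.10, Trimmomatic 0.33, edgeR and build dm6 are named per the submitters' processing notes; the annotation is not given in the sources used here. Per the labels' protocols, 10 ng of RNA entered a SMARTer Ultra Low kit (12-15 amplification cycles, 150-base paired reads), without strand or molecular identifiers. Between 29.6% and 36.1% of the deposited counts in a library were not whole (tolerance 0.0005); they were rounded for tests. Levels are CPM by library total. Over all genes, edgeR 4.0.16 (R 4.3.3) with filterByExpr, TMM factors and the quasi-likelihood test compared genotypes, with Benjamini-Hochberg adjustment over 11542 genes and calls made under 0.05; it was tested on simulated data. Positions and newer names are from Ensembl 115 (BDGP6.54, dm6 coordinates), in which 17083 of the 17208 genes of the table were found. Members, role groups and lists were chosen with earlier results of these data known. Roles come from general knowledge, newer names and RefSeq synonyms, since the annotation used gives no product names. Every member is named; full library values go to those highest in level or ratio, at 0 in w1118 or near a threshold, and to others chosen after their values were seen. Neighbours named are those called, some of the overlapping genes, and uncalled adjoining genes of related function chosen after their values were seen. Protein relatives and promoters were not analysed here. Bounds use 3 counts over the controls. Bounds and intervals cover counting error only, not the spread between libraries or the choice of genes on these same counts. Alternatives were RLE factors, no filter, DESeq2 1.42.0, limma voom 3.58.1, each library left out, a replicate block and other limits of the rule.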

Additional observations from a re-analysis of the deposited data

How the results depend on the processing

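The number of genes meeting the rule depended mostly on its own limits. It was 25 with a pseudocount of 0.5 CPM and 18 with 1 CPM, since higher pseudocounts shrink the ratios of weak genes. With a ratio of at least 8 it was 15, and in all of these settings the genes were from among the 43. It was 32 with a minimum of 2 CPM, and it grew to 51 with a minimum of 0.5 CPM and 52 with a ratio of at least 3. It was 42 when CG31810 was summed with CG31809, a choice made after seeing the data. Without each library in turn it ran from 35 to 51. Over all genes, 517 were called higher and 453 lower in DESeq2, and without each library 101 to 425 higher and 72 to 381 lower. Among neighbours, 2 to 8 were called higher and 3 lower without each library. With the replicate number as a block, 3 were called higher, CG18088, CG15253, CG42566 and *Elp2* being lost. Same-numbered libraries correlated in their deviations from the group mean at 0.15 and -0.04 over only 2 pairs. With 2 controls the control deviations mirror each other, so these values are not independent. They cannot decide whether same-numbered libraries share a batch. Split after seeing the data, neighbours of members on chromosome 2 gave 6 higher and 3 lower of 48 tested. Those of members elsewhere gave 1 and 0 of 28. The shares over tested genes other than the 43 were 1.8% higher and 2.16% lower. Chromosome 2 held 43% of these called higher, 52.0% of those called lower and 38.0% of those tested. Whether the neighbours differ from such shares was not tested. The log2 fold change of *ft* ran from -0.62 to -0.52 without each library and was -0.64 with the replicate block, no longer called (edgeR adjusted p = 0.0936). No member or called neighbour reversed its direction in any alternative fit. The rule and the main call had already set these directions, so nothing is read from that. Of the fitted values of members, 20 of 473 moved by more than the spread between libraries. Sums over copies defined by protein identity, and the tests of closest protein relatives, were not run. The sums in the report pair genes by position or name.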
